A study of Mus musculus with 40 samples.

Results

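Amino acid transporter genes of 6 solute carrier families were followed through mouse mammary development. Members were all genes of the deposited expression table whose symbol belongs to the families Slc1, Slc3, Slc7, Slc36, Slc38 or Slc43, which gave 42 of 22552 genes. The rule used symbols and no measured value. There were 7 members in Slc1, 2 in Slc3, 15 in Slc7, 4 in Slc36, 11 in Slc38 and 3 in Slc43.

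Milk protein synthesis draws its amino acids from blood plasma, through carriers in the membranes of alveolar epithelial cells. The Slc1 family holds glutamate carriers and exchangers of small neutral amino acids, the Slc38 family sodium-coupled carriers of glutamine and other neutral amino acids, the Slc36 family proton-coupled carriers, and the Slc43 family facilitators. Slc7 proteins are either cationic amino acid transporters or light chains. The light chains reach the cell surface as disulfide-linked heterodimers with a heavy chain of the Slc3 family, of which Slc3a2 (CD98) serves most of them.

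Poly(A) RNA was sequenced from whole mammary tissue of outbred mice in 31 libraries, which the authors reduced to 12 group columns. The Ezh2 KO glands carried floxed Ezh2 alleles (Ezh2f/f) with an MMTV-Cre transgene, the Ezh1 het Ezh2 KO glands the same with 1 Ezh1 allele lost (E1+/-;E2f/f), the Ezh1 KO glands were E1-/-, and the controls were MMTV-Cre mice, so that the controls carried the Cre transgene too. MMTV-Cre drives recombination chiefly in epithelium, and the fat, stroma and vessels of the tissue are not its main target. EZH1 and EZH2 are the alternative methyltransferases of Polycomb repressive complex 2. On days 13 (p13) and 18 (p18) of pregnancy each of the 4 genotypes had 3 libraries, except Ezh1 KO at p18 with 2. Virgin glands of mice aged 12 weeks came from Ezh2 KO and control mice, 2 libraries per group, with and without prolactin at 5 µg per g body weight. The prolactin-treated gland was taken from the same animal 2 h after the injection and after the untreated gland had been removed under anaesthesia, so prolactin, surgery and time cannot be told apart.

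Each gene had 1 value per group in FPKM, a level scaled for transcript length, so levels of different genes can be compared. No spread between mice, no p-value and no depth could be given. Ezh1 was at 1.06 FPKM in p13 Ezh1 KO against 14.7 in p13 control, while Ezh2 was at 13.7 in p13 Ezh2 KO against 12.9 in p13 control, and at 5.55 in untreated virgin Ezh2 KO against 4.98 in control. In p13 Ezh1 het Ezh2 KO it was at 9.54. After prolactin it was at 4.64 in virgin Ezh2 KO against 6.74 in control. At p18 it was at 6.41 where both Ezh1 alleles were kept and at 6.24 in Ezh1 het Ezh2 KO, against 10.0 in control. Ezh2 was thus below control in both mutants at p18, in p13 Ezh1 het Ezh2 KO and after prolactin, but not in p13 or untreated virgin Ezh2 KO, and whole-tissue values do not show how much of it was deleted. Tissue makeup differed between columns. The summed FPKM of 12 skeletal muscle genes stood at 2805 in the p13 Ezh1 KO column against 11186 in the p13 control column, with no other column above 485. The sum of 8 lymphocyte genes was 224 in untreated virgin Ezh2 KO and 177 in prolactin-treated virgin control, against 4.34 to 54.7 elsewhere. The sum of 5 erythroid genes ranged from 54.4 to 2066 and that of 6 liver genes from 3.48 to 382. In whole tissue, fewer cells of a type and less RNA per cell cannot be told apart.

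Of the 42 members, 27 reached 1 FPKM in at least 1 group and 23 reached 5 FPKM. The other 15 stayed below 1 FPKM throughout: Slc1a2, Slc1a6, Slc1a7, Slc3a1, Slc7a3, Slc7a9, Slc7a11, Slc7a12, Slc7a13, Slc7a14, Slc7a15, Slc36a3, Slc38a5, Slc38a8 and Slc38a11. Slc7a11, the cystine and glutamate exchanger xCT, had the highest value of these, 0.893 FPKM in untreated virgin Ezh2 KO. Slc3a1, the heavy chain of kidney and intestine, reached at most 0.173 FPKM, and its partner Slc7a9 was listed at 0 in 10 of 12 groups. The 4 members between 1 and 5 FPKM were Slc1a1 with a highest level of 3.68, Slc36a1 with 4.74, Slc38a4 with 4.75 and Slc38a9 with 1.93. Levels of the 27 members are shown by group in the heat map.

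**Figure D1:**
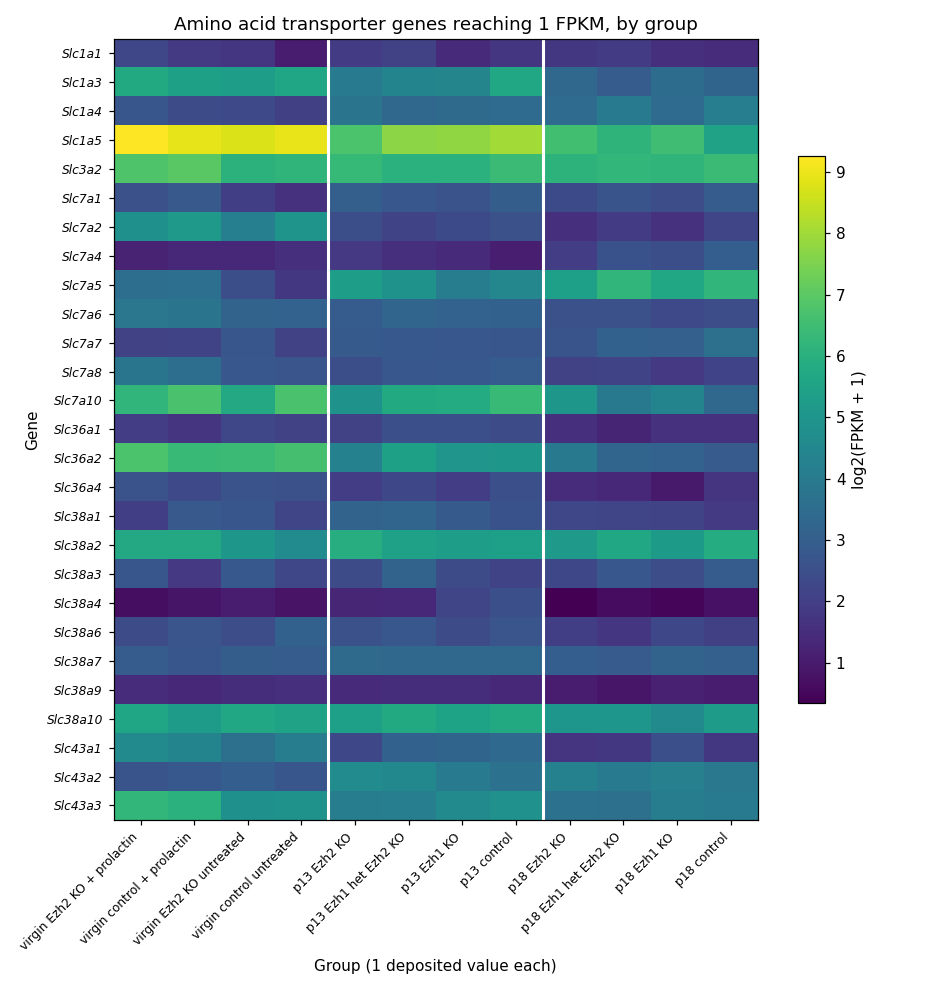
Heat map of log2(FPKM + 1) for the 27 members that reached 1 FPKM (rows) in the 12 groups (columns, 1 deposited value each, white lines between virgin, p13 and p18). Slc1a5 is brightest in virgin glands, at 447 to 613 FPKM, and Slc7a5 is brighter at p18, at 40.5 to 73.7 FPKM, than in virgin glands, at 2.48 to 11.0.

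Differences are given as log2(FPKM + 1) of the first-named group minus the second, with folds as plain FPKM ratios. A difference of 1 or more in size is called past the threshold. This is a size and not a test, and the log2 scale with its added 1 understates differences of low genes. Counts of members are out of the 27 that reached 1 FPKM and are set beside the share of all 14273 genes with at least 1 FPKM that passed in the same direction. Comparisons that use the same control column share its errors.

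The makeup of the light chain transcripts in whole tissue differed between stages. Slc7a5 (LAT1), which carries leucine and other large neutral amino acids, stood in Ezh2 KO at 4.59 FPKM in untreated virgin glands, 39.7 at p13 and 40.5 at p18. It was at 73.4 FPKM at p18 against 28.4 at p13 in Ezh1 het Ezh2 KO, and at 50.7 against 16.1 in Ezh1 KO. In controls it stood at 2.48, 21.0 and 73.7 FPKM in untreated virgin, p13 and p18 glands. The p18 values all lay above every virgin value, and at p18 Ezh2 KO was lowest and Ezh1 het Ezh2 KO and control were high. The p13 over virgin fold was 8.65 in Ezh2 KO and 8.48 in controls (differences of 2.86 and 2.66). The p18 over p13 fold was 1.02 in Ezh2 KO (difference 0.03), 2.59 in Ezh1 het Ezh2 KO (1.34), 3.15 in Ezh1 KO (1.60) and 3.50 in controls (1.76). With every group rescaled to a common sum of FPKM the Ezh1 KO and Ezh1 het Ezh2 KO differences fell below the threshold, at 0.94 and 0.55.

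Slc7a10 (Asc-1), a light chain for small neutral amino acids and D-serine that is also known as a white adipocyte surface protein, had the opposite order of stages in controls. In Ezh2 KO it stood at 51.3 FPKM in untreated virgin glands, 29.2 at p13 and 32.7 at p18. It was at 14.5 FPKM at p18 against 53.3 at p13 in Ezh1 het Ezh2 KO, and at 19.9 against 55.3 in Ezh1 KO. In controls the values were 104, 82.8 and 8.89 FPKM in untreated virgin, p13 and p18 glands. Control thus held both the highest and the lowest value, and Ezh2 KO was the single genotype without a lower value at p18 than at p13. The p18 minus p13 difference was -1.81 in Ezh1 het Ezh2 KO, -1.43 in Ezh1 KO and -3.08 in controls (9.31-fold lower at p18).

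Of the summed FPKM of the 6 light chains known to pair with Slc3a2 (Slc7a5, Slc7a6, Slc7a7, Slc7a8, Slc7a10 and Slc7a11), Slc7a5 made up 6.00% in untreated virgin, 45.9% in p13 and 46.6% in p18 Ezh2 KO glands, against 2.01%, 17.0% and 72.0% in controls. The Slc7a10 share was 67.2%, 33.7% and 37.6% in Ezh2 KO, against 84.4%, 66.7% and 8.68% in controls. At p18 the Slc7a5 share was 70.5% in Ezh1 het Ezh2 KO and 59.8% in Ezh1 KO. The sum itself lay between 76.4 and 142 FPKM over the 12 groups. Slc3a2, the shared heavy chain, lay between 64.0 and 126 FPKM with no difference past the threshold in any of the 16 comparisons, and its ratio to the light chain sum ran from 0.584 to 0.983. Among the light chains, the ratio of Slc7a5 to Slc7a10 was lowest in untreated virgin controls, at 0.0238, and highest in p18 controls, at 8.29. These are whole-tissue values, in which the share of a light chain also rises when another falls. Whether the light chains and Slc3a2 lay in the same cells was not tested.

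**Figure D2:**
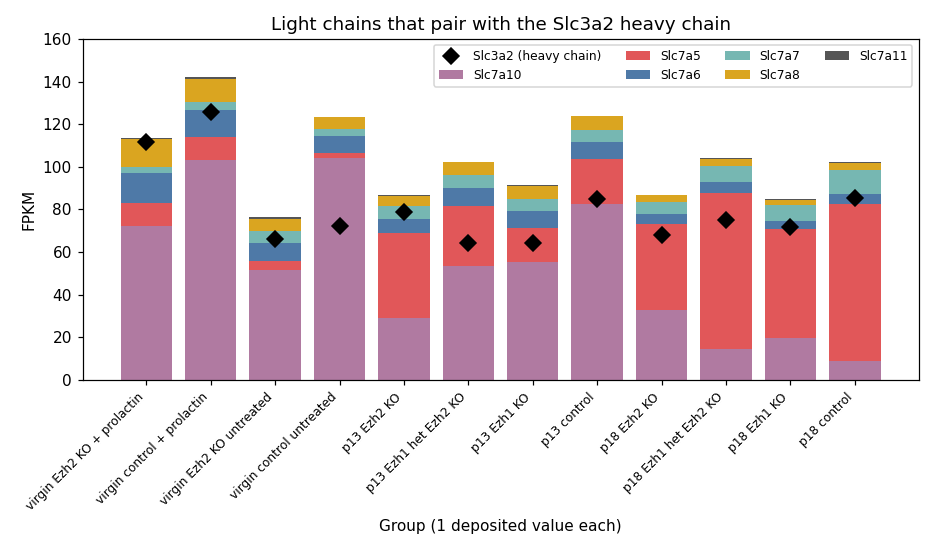
Stacked bars give the whole-tissue FPKM of 6 light chains in each of the 12 groups (1 deposited value each). Diamonds give Slc3a2, the heavy chain of these 6. The Slc7a10 segment fills 8.68% of the bar in p18 controls and 84.4% in untreated virgin controls, while the bars as a whole stay between 76.4 and 142 FPKM.

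The remaining light chains that reached 1 FPKM were Slc7a6, Slc7a7 and Slc7a8, at 2.55 to 13.7 FPKM. Slc7a7 (y+LAT1), which exports cationic in exchange for neutral amino acids, was at 5.69, 6.25 and 5.35 FPKM in virgin, p13 and p18 Ezh2 KO, and at 3.34, 5.62 and 11.5 in controls. Its relative Slc7a6 (y+LAT2) was at 8.12, 6.69 and 4.82 FPKM in Ezh2 KO and at 7.80, 7.71 and 4.45 in controls. Slc7a8 (LAT2) was at 5.79, 4.56 and 3.30 FPKM in Ezh2 KO and at 5.53, 6.75 and 3.45 in controls. None of these 3 genes passed the threshold between stages.

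Promoters from RefSeq (build GRCm38.p6, 250 bases before to 50 after the annotated start) were matched by symbol for 31 of the 42 members and for 19 of the 27 that reached 1 FPKM, with 28 start sites among the 19. They were searched on both strands for TTCNNNGAA, the letters of the STAT5 binding element, because the series is about STAT5, and for TGATGNAA, the core of the ATF4 response element found at some amino acid carrier genes. TTCNNNGAA occurred in 3 of the 28 promoters and in 8.30% of all 32851 promoters, and TGATGNAA in 3 of the 28 and in 3.97% of all. Slc7a5 and Slc1a5 had no matched promoter and could not be searched. Like them, Slc7a10 passed the threshold in 7 of 16 comparisons, and no member did in more. The promoters below are those of Slc7a10, of Slc1a3, which was lower at p18 than at p13 in controls, of Slc1a4, which was higher at p13 than in virgin glands, and of the downstream of 2 starts of Slc7a1, which was higher after prolactin in controls. The last 3 were chosen after their values and matches were seen, as windows that hold a motif. Capitals mark a match, which is a run of letters and not a shown binding site.
Slc7a10 (chr7:35186135-35186434, plus strand): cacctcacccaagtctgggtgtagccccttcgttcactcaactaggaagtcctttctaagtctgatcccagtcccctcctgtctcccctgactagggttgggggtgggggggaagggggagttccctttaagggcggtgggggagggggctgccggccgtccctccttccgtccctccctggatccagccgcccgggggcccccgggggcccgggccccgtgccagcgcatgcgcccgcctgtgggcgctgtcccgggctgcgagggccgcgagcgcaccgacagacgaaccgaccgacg
Slc1a3 (chr15:8710758-8711057, minus strand): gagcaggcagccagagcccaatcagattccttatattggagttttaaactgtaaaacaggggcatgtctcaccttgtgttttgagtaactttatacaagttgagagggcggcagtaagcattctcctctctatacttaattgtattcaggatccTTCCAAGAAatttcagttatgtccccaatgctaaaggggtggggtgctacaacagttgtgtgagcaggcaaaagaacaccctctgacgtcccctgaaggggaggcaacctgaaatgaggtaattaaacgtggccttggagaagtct
Slc1a4 (chr11:20332664-20332963, minus strand): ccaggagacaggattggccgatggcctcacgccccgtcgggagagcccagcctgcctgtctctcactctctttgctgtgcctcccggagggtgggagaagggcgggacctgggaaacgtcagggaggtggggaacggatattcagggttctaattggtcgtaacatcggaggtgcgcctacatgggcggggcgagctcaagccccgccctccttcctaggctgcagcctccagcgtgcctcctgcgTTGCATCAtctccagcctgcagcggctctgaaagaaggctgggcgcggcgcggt
Slc7a1 (chr5:148392766-148393065, minus strand): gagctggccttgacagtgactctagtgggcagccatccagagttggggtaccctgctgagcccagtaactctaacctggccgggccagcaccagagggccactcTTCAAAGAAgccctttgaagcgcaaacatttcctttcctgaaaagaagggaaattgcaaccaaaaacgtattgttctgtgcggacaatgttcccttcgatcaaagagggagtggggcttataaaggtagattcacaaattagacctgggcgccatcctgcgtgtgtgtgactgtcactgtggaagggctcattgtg
The Slc1a3 and Slc7a1 windows each hold 1 TTCNNNGAA, starting at base 155 and base 105 counted from the 5′ end, the Slc1a4 window holds 1 TGATGNAA read on the opposite strand, starting at base 247, and the Slc7a10 window holds neither. The other matches were TTCNNNGAA at Slc38a9 and TGATGNAA at both of the other windows with that motif, which belong to overlapping starts of Slc7a7.

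Slc1a5 (ASCT2), the exchanger of glutamine and other neutral amino acids, had the highest level of all members. In Ezh2 KO it stood at 447 FPKM in untreated virgin glands, 106 at p13 and 93.7 at p18. It was at 70.5 FPKM at p18 against 208 at p13 in Ezh1 het Ezh2 KO, and at 92.3 against 219 in Ezh1 KO. In controls the values were 497, 260.4 and 44.2 FPKM in untreated virgin, p13 and p18 glands. After prolactin virgin glands had 613 FPKM in Ezh2 KO and 492 in control, against 447 and 497 untreated. Stages did not overlap, since every virgin value lay above every p13 value and every p13 value above every p18 value. Slc1a5 made up 10.2% of the summed FPKM of the 42 members in p18 controls, against 48.3% in untreated virgin controls. The p18 minus p13 difference was -0.17 in Ezh2 KO, -1.55 in Ezh1 het Ezh2 KO, -1.23 in Ezh1 KO and -2.53 in controls (5.90-fold lower at p18).

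Slc1a4 (ASCT1), the related carrier of alanine, serine and cysteine, had low values in virgin glands. It was at 3.99, 12.8 and 9.96 FPKM in virgin, p13 and p18 Ezh2 KO and at 3.06, 9.92 and 17.0 FPKM in controls, where it was highest at p18. The p13 over virgin fold was 3.21 in Ezh2 KO (difference 1.47) and 3.24 in controls (1.43). In Ezh2 KO, where 7 of 8 luminal markers were also higher by the threshold at p13 than in virgin glands, the difference turned to -0.16 when every group was rescaled to a common level of luminal markers. Slc1a3 (GLAST), a glutamate and aspartate carrier, stood at 38.9, 15.1 and 9.21 FPKM in virgin, p13 and p18 Ezh2 KO and at 47.5, 50.0 and 8.19 FPKM in controls. It was at 6.71 FPKM at p18 against 19.8 at p13 in Ezh1 het Ezh2 KO, and at 10.4 against 20.2 in Ezh1 KO. The p13 control was the single p13 group with a level near those of virgin glands, as the other 3 lay between 15.1 and 20.2 FPKM. Slc1a1 (EAAC1), another glutamate carrier, lay between 1.08 and 3.68 FPKM and never passed the threshold.

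The cationic transporters Slc7a1 and Slc7a2, which import arginine and lysine, moved in opposite directions at p13 against virgin. Slc7a1 (CAT1) was at 2.98, 7.15 and 4.07 FPKM in virgin, p13 and p18 Ezh2 KO and at 2.07, 6.83 and 6.70 in controls. Slc7a2 (CAT2) was at 17.2, 4.60 and 1.95 FPKM in Ezh2 KO and at 30.0, 4.93 and 3.60 in controls. The p13 minus virgin difference was 1.03 for Slc7a1 and -1.70 for Slc7a2 in Ezh2 KO, and 1.35 and -2.39 in controls. In Ezh2 KO the Slc7a1 difference was 0.77 with a common sum, 0.96 with a common sum without milk protein genes, and -0.50 at a common level of luminal markers. Slc7a4, a member of the same branch with no established transport activity, was at 1.54, 2.55 and 2.91 FPKM in virgin, p13 and p18 Ezh2 KO and at 1.93, 1.12 and 7.09 in controls, where the p18 level was 6.32-fold the p13 level (difference 1.93). It was at 5.00 FPKM at p18 against 1.99 at p13 in Ezh1 het Ezh2 KO (1.01) and at 4.57 against 1.64 in Ezh1 KO (1.08). With a common sum these 2 differences were 0.37 and 0.56, below the threshold. In Ezh1 het Ezh2 KO it was also below with a common sum without milk protein genes (0.88) and at a common luminal level (0.90).

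Among the proton-coupled carriers, Slc36a2 (PAT2), a glycine and proline carrier also known as an adipocyte surface protein, was at 84.0, 18.0 and 14.6 FPKM in virgin, p13 and p18 Ezh2 KO. It was at 8.61 FPKM at p18 against 42.0 at p13 in Ezh1 het Ezh2 KO, and at 7.83 against 31.0 in Ezh1 KO. In controls it was at 99.1, 32.2 and 6.41 FPKM. Every virgin value, 82.6 FPKM or more, lay above every pregnant value. The p18 minus p13 difference was -2.16 in Ezh1 het Ezh2 KO, -1.86 in Ezh1 KO and -2.16 in controls. Slc36a4 lay between 0.971 and 5.21 FPKM without passing the threshold. Slc36a1 (PAT1), a lysosomal carrier, passed once, at 1.39 FPKM at p18 against 4.69 at p13 in Ezh1 het Ezh2 KO (difference -1.25).

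In the Slc38 family, Slc38a2 (SNAT2), the system A carrier that is itself induced by amino acid shortage, was at 32.2, 58.0 and 34.1 FPKM in virgin, p13 and p18 Ezh2 KO and at 23.9, 40.6 and 57.0 in controls. Slc38a1 (SNAT1) was at 5.67, 8.04 and 3.78 FPKM in Ezh2 KO and at 3.66, 4.96 and 2.66 in controls, and it passed the threshold between stages once, at 3.65 FPKM at p18 against 8.45 at p13 in Ezh1 het Ezh2 KO (difference -1.02). Slc38a4 (SNAT4), an imprinted gene, was at 1.03, 1.49 and 0.268 FPKM in Ezh2 KO and at 0.764, 4.75 and 0.730 in controls, with control differences of 1.70 at p13 over virgin and -1.73 at p18 over p13. In Ezh1 KO it was at 3.63 FPKM at p13 and 0.423 at p18 (difference -1.70). Only the p13 control and p13 Ezh1 KO columns were above 1.59 FPKM, and these also held the most skeletal muscle transcripts. The part of muscle in the Slc38a4 values was not tested. For these 3 genes the control order differed, with Slc38a2 highest at p18 and the other pair highest at p13. Slc38a10 was the other abundant member of the family at 22.7 to 53.6 FPKM, and Slc38a7, a lysosomal glutamine carrier, varied least of the 27 members, from 5.63 to 9.84 FPKM, a 1.75-fold range. Slc38a6 ran from 2.40 to 7.65, Slc38a3 (SNAT3, a glutamine carrier) from 2.58 to 8.18 and Slc38a9, the lysosomal arginine sensor upstream of mTORC1, from 0.847 to 1.93 FPKM.

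The facilitators of the Slc43 family differed in their order of stages. Slc43a1 (LAT3) stood at 11.3, 3.85 and 2.18 FPKM in virgin, p13 and p18 Ezh2 KO and at 16.0, 9.51 and 2.44 in controls. Slc43a2 (LAT4) stood at 7.10, 24.2 and 18.4 FPKM in Ezh2 KO and at 5.59, 11.9 and 14.0 in controls. Its p13 minus virgin difference of 1.64 in Ezh2 KO turned to -0.08 at a common level of luminal markers. Slc43a3, which is known to carry purine bases rather than amino acids, was at 27.3, 16.3 and 11.8 FPKM in Ezh2 KO and at 28.3, 28.1 and 15.0 in controls.

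By count, 4 of 27 members were higher in p13 than in untreated virgin Ezh2 KO (14.8%, where 11.0% of all genes were, the background) and 5 were lower (18.5%, background 9.11%). In controls 4 were higher at p13 (14.8%, background 9.12%) and 2 lower (7.41%, background 2.76%). The lower ones in Ezh2 KO were Slc36a2 (-2.16), Slc1a5 (-2.07), Slc7a2 (-1.70), Slc43a1 (-1.35) and Slc1a3 (-1.31), and those in controls were Slc7a2 (-2.39) and Slc36a2 (-1.59), while 9 of 9 adipocyte markers were lower in Ezh2 KO and 3 of 9 in controls. Between p18 and p13 none passed in either direction in Ezh2 KO (backgrounds 1.10% higher and 4.10% lower). In Ezh1 het Ezh2 KO 2 were higher at p18 (7.41%, background 1.66%) and 7 lower (25.9%, background 16.0%), and in Ezh1 KO 2 were higher (background 1.56%) and 4 lower (14.8%, background 12.1%). In controls 2 were higher (background 3.55%) and 6 lower (22.2%, background 19.1%), which for the lower members is a share near the background. The median member difference at p18 against p13 was -0.38 in Ezh2 KO, -0.59 in Ezh1 het Ezh2 KO, -0.51 in Ezh1 KO and -0.53 in controls, beside medians over all genes of -0.45, -0.48, -0.48 and -0.46.

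Several members that were lower at p18 than at p13 moved with fat cell markers. The summed FPKM of 9 adipocyte markers, none of which was at 0 in any group, was 34849 in untreated virgin, 12127 in p13 and 13179 in p18 Ezh2 KO, and 49204, 30765 and 5781 in controls. None was lower by the threshold at p18 than at p13 in Ezh2 KO, and all 9 were lower in controls. Fabp4 was the largest part of the sum in every group, with 35995 of 57720 FPKM in prolactin-treated virgin Ezh2 KO, so ratios to the sum mostly follow that gene. Slc1a5 varied 13.9-fold over the 12 groups, but per 1000 FPKM of these markers it ranged from 7.11 to 12.8, a 1.81-fold range. The same ratio ranged 2.27-fold for Slc7a10, against 11.7-fold for its level, and 3.25-fold for Slc36a2, against 16.4-fold for its level. For Slc1a3 and Slc43a1 the ratio ranged 2.37-fold and 2.73-fold, against levels that ranged 7.99-fold and 10.7-fold. For Slc7a2 it ranged 4.21-fold, against 17.4-fold for its level, and no ratio was taken for the other members. Markers of other tissues were lower at p18 than at p13 too. In controls these were 12 of 12 skeletal muscle, 5 of 5 erythroid and 5 of 6 macrophage markers. Of the 6 macrophage markers 5 were also lower in Ezh1 KO and in Ezh1 het Ezh2 KO, and 0 in Ezh2 KO. The part of fat, or of these other tissues, in the transporter values was not tested. Slc7a5 divided by the geometric mean of 6 luminal markers (Krt8, Krt18, Krt19, Epcam, Cdh1 and Cldn7) ranged 24.3-fold, from 0.0178 in untreated virgin controls to 0.433 in p18 controls, against 29.7-fold for its level. Of the luminal markers outside that mean, Elf5, a transcription factor of alveolar cells, was at 698 FPKM in p18 control against 25.1 in untreated virgin control, and Gata3 at 36.5 against 39.5. The part of epithelial content in the Slc7a5 values was not tested.

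**Figure D3:**
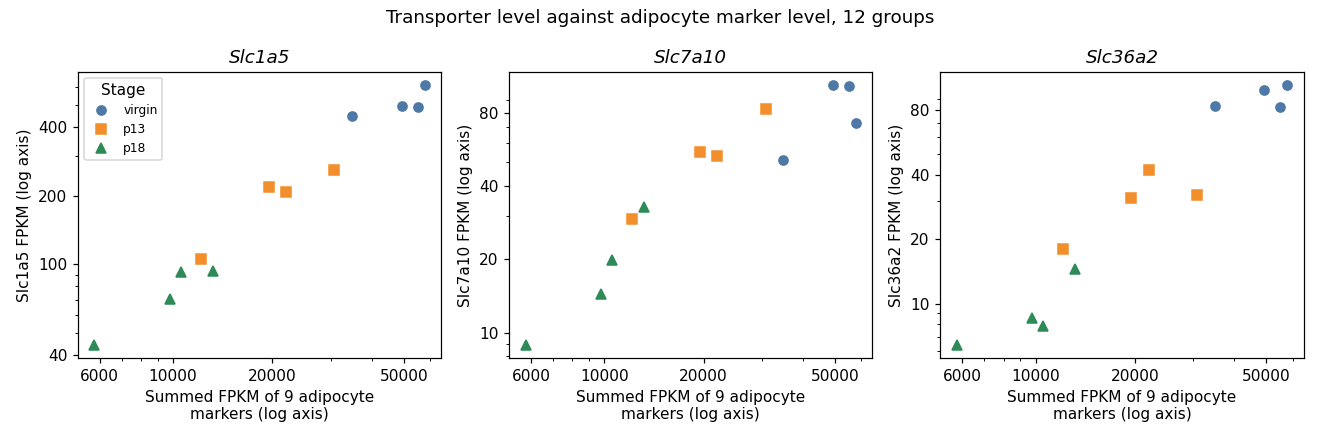
Each point is 1 of the 12 groups, with the summed FPKM of 9 adipocyte markers on the x axis and the FPKM of Slc1a5, Slc7a10 or Slc36a2 on the y axis (log axes, symbols by stage). Slc1a5 follows the marker sum from 44.2 FPKM in p18 controls, the group with the lowest sum, to 613 FPKM in prolactin-treated virgin Ezh2 KO, the group with the highest.

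At p13 the comparison with control asked how loss of Ezh1 or Ezh2 bears on the transporters. In Ezh2 KO none of 27 members was higher by the threshold (background 2.65%) and 5 were lower (18.5%, background 6.59%). The lower members were Slc1a3 at 15.1 against 50.0 FPKM in control (difference -1.66), Slc7a10 at 29.2 against 82.8 (-1.47), Slc1a5 at 106 against 260.4 (-1.30), Slc38a4 at 1.49 against 4.75 (-1.21) and Slc43a1 at 3.85 against 9.51 (-1.12). Of the 9 adipocyte markers 6 were lower by the threshold too, and their sum was 12127 against 30765 FPKM. All 5 erythroid markers were lower as well (median difference -2.35), with a sum of 346 against 2066 FPKM. So were all 12 skeletal muscle markers (median difference -8.42) and 5 of 6 macrophage markers (-1.11). The part of these tissues in the lower members was not tested. Just short of the threshold on the higher side were Slc43a2 at 24.2 against 11.9 FPKM (0.97) and Slc7a5 at 39.7 against 21.0 FPKM (0.89), beside a luminal marker sum of 2423 against 1392 FPKM.

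In the other p13 genotypes fewer members passed. In Ezh1 KO no member was higher (background 2.10%) and 1 was lower (3.70%, background 2.28%), Slc1a3 at 20.2 against 50.0 FPKM (difference -1.27). In Ezh1 het Ezh2 KO 1 was higher (background 3.12%), Slc38a3 at 8.18 against 3.46 FPKM (1.04), and 2 were lower (7.41%, background 3.19%), Slc1a3 at 19.8 against 50.0 FPKM (-1.30) and Slc38a4 at 1.59 against 4.75 FPKM (-1.15). All 3 mutant groups thus had lower Slc1a3 than the p13 control column, which also held the muscle transcripts given above. With p13 Ezh1 KO in place of that column, Slc1a3 differed by -0.40 for Ezh2 KO and by -0.03 for Ezh1 het Ezh2 KO. On that basis 1 member was higher in Ezh2 KO (3.70%, background 1.11%), Slc7a5 at 39.7 against 16.1 FPKM, and 1 was lower (3.70%, background 3.81%), Slc1a5 at 106 against 219 FPKM. None passed for Ezh1 het Ezh2 KO (backgrounds 1.28% higher and 2.04% lower). The p13 Ezh1 KO column stands apart too, with all 6 liver markers higher than in p13 control (median difference 4.31) and a liver marker sum of 382 against 10.5 FPKM, beside its muscle sum of 2805 FPKM. In p13 Ezh1 het Ezh2 KO all 8 lymphocyte markers were higher than in p13 control (median difference 1.93). Of its 5 erythroid markers 4 were lower (-1.34). The part of these transcripts in the differences was not tested.

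At p18 the Ezh2 KO differences from control had other signs. There 3 members were higher (11.1%, background 2.38%), namely Slc7a10 at 32.7 against 8.89 FPKM (difference 1.77), Slc36a2 at 14.6 against 6.41 (1.07) and Slc1a5 at 93.7 against 44.2 (1.07), and 1 was lower (3.70%, background 2.14%), Slc7a4 at 2.91 against 7.09 FPKM (-1.05). With a common sum the Slc7a4 difference was -0.75, and with a common sum without milk protein genes the Slc1a5 difference was 0.99. Short of the threshold were Slc7a7 at 5.35 against 11.5 FPKM (-0.98), Slc7a5 at 40.5 against 73.7 (-0.85), Slc38a2 at 34.1 against 57.0 (-0.73) and Slc1a4 at 9.96 against 17.0 (-0.72). Of the 9 adipocyte markers 6 were higher, with a sum of 13179 against 5781 FPKM, and the 8 luminal markers had a sum of 1675 against 1999 FPKM with none past the threshold. All 5 erythroid markers were higher (median difference 4.50), with a sum of 1450 against 54.4 FPKM, and the part of blood or fat in these values was not tested.

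**Figure D4:**
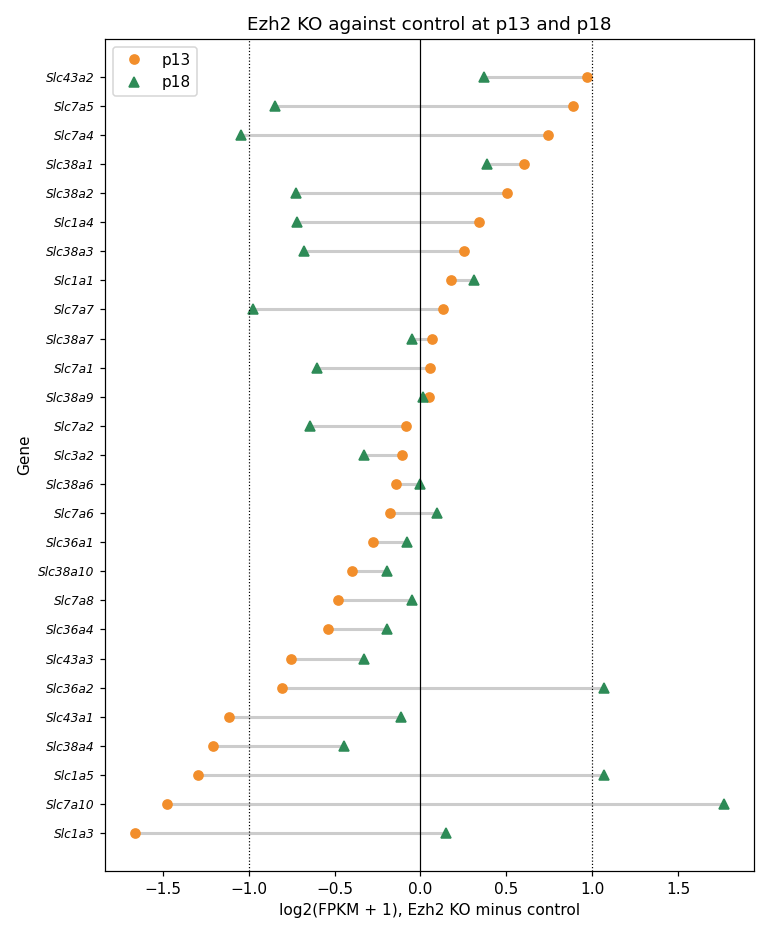
Differences in log2(FPKM + 1), Ezh2 KO minus control, for the 27 members at p13 (circles) and p18 (triangles), ordered by the p13 value, with dotted lines at the threshold of 1 in either direction. Slc7a10 lies at -1.47 at p13 and 1.77 at p18, and Slc7a5 at 0.89 and -0.85.

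The remaining p18 genotypes differed from control in fewer members. In Ezh1 KO 2 were higher (7.41%, background 1.21%), Slc7a10 at 19.9 against 8.89 FPKM (difference 1.08) and Slc1a5 at 92.3 against 44.2 FPKM (1.05), and none was lower (background 1.39%). Both fell just below the threshold under each rescaling, to between 0.84 and 0.99. In Ezh1 het Ezh2 KO none passed in either direction (backgrounds 1.23% and 1.55%), and Slc7a5 was at 73.4 against 73.7 FPKM. The adipocyte marker sum was 10553 FPKM in Ezh1 KO and 9777 in Ezh1 het Ezh2 KO, against 5781 in control. In Ezh1 KO 12 of 12 skeletal muscle markers (median difference 1.57) and 4 of 5 erythroid markers (2.11) were higher too. In Ezh1 het Ezh2 KO 5 of 8 lymphocyte markers were higher (1.03) and 9 of 12 skeletal muscle markers lower (-1.36). The part of these tissues in the member differences was not tested. No replicate check stands behind any of these differences.

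In virgin glands after prolactin, 3 members were higher in Ezh2 KO (11.1%, background 2.75%) and none was lower (background 4.08%). Slc43a3 was at 74.8 FPKM after prolactin against 27.3 untreated (difference 1.42), Slc7a5 at 10.9 against 4.59 (1.08) and Slc7a8 at 13.1 against 5.79 (1.06). In controls 4 were higher (14.8%, background 4.76%), Slc7a5 at 11.0 against 2.48 FPKM (4.45-fold, 1.79), Slc7a1 at 6.21 against 2.07 (1.23), Slc43a3 at 64.1 against 28.3 (1.15) and Slc38a2 at 51.7 against 23.9 (1.08), and none was lower (background 1.72%). The members that passed in 1 genotype had smaller differences of the same sign in the other. In Ezh2 KO Slc38a2 was at 52.1 against 32.2 FPKM (0.68) and Slc7a1 at 4.85 against 2.98 (0.55), and in controls Slc7a8 was at 11.0 against 5.53 FPKM (0.88). The heavy chain Slc3a2 was at 112 against 66.1 FPKM in Ezh2 KO (0.75) and 126 against 72.1 in controls (0.80). Under each of the 3 rescalings Slc38a2 and Slc43a3 in controls and Slc7a5 and Slc7a8 in Ezh2 KO fell below the threshold, to between 0.75 and 0.98. The lymphocyte markers moved in opposite directions in the 2 genotypes: their sum was 4.34 FPKM after prolactin against 224 untreated in Ezh2 KO, and 177 against 13.6 in controls, with all 8 past the threshold each time. Slc38a1 had the same signs as the lymphocyte sums, at 2.95 against 5.67 FPKM in Ezh2 KO and 6.11 against 3.66 in controls, and the part of lymphoid tissue in this was not tested.

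**Figure D5:**
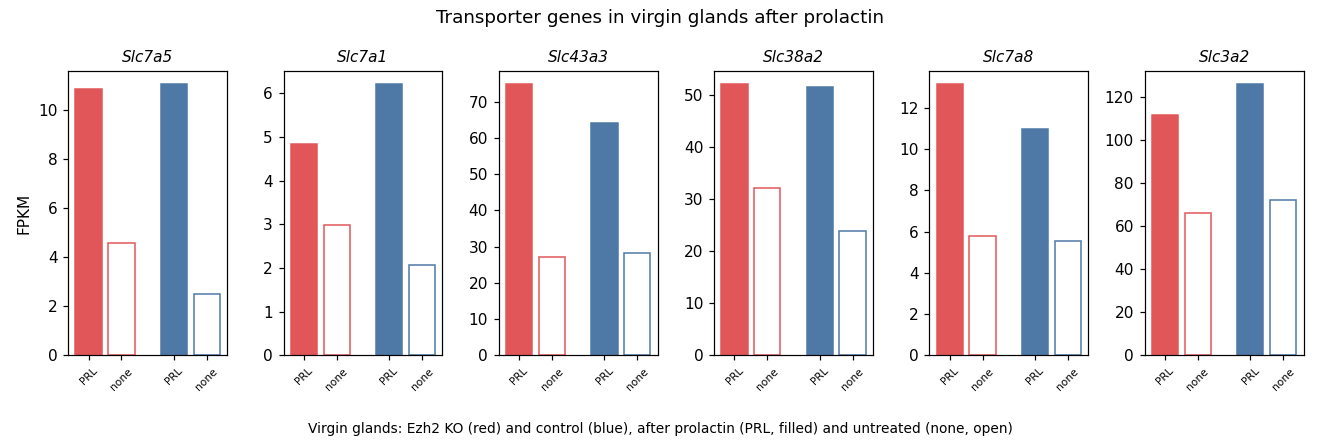
FPKM of 6 members in virgin glands, with Ezh2 KO in red and control in blue, filled bars after prolactin and open bars untreated (1 deposited value each, axes from 0). In every panel the filled bar is above the open bar of the same genotype, as for Slc7a5 at 10.9 against 4.59 FPKM in Ezh2 KO and 11.0 against 2.48 in control.

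Between virgin genotypes, 1 member passed the threshold without prolactin and none after it. Slc7a10 was at 51.3 FPKM in untreated Ezh2 KO against 104 in untreated control (difference -1.01; 1 lower member is 3.70%, background 0.911%, and none was higher, background 3.35%). It fell below the threshold under each rescaling, to between -0.15 and -0.92. After prolactin no member passed in either direction in Ezh2 KO against control (backgrounds 0.764% higher and 2.71% lower), with Slc7a10 at 72.3 against 103 FPKM. In untreated Ezh2 KO 8 of 8 lymphocyte (median difference 3.20) and 5 of 6 liver markers (2.02) were higher than in control. After prolactin 8 of 8 lymphocyte markers were lower (-3.45). The median luminal marker difference was -0.78 untreated and -0.64 after prolactin. The part of these tissues was not tested.

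Genes outside the 6 families were read for comparison. The backgrounds for their counts at p13 against virgin were 11.0% higher and 9.11% lower in Ezh2 KO, and 9.12% and 2.76% in controls. At p18 against p13 they were 1.10% higher and 4.10% lower in Ezh2 KO, and 3.55% and 19.1% in controls. After prolactin they were 2.75% higher and 4.08% lower in Ezh2 KO, and 4.76% and 1.72% in controls. Of 22 other amino acid and peptide carriers 13 reached 1 FPKM. At p13 against virgin 3 of them were higher and 1 lower in Ezh2 KO, and 2 were higher and none lower in controls, with list medians of 0.35 and 0.41 beside 0.12 and 0.17 over all genes. At p18 against p13 none passed in Ezh2 KO, none was higher and 2 were lower in controls, and none passed after prolactin in either genotype. Slc15a2 (PEPT2), a peptide carrier, was at 4.35, 32.3 and 30.3 FPKM in virgin, p13 and p18 Ezh2 KO and at 7.07, 13.0 and 23.6 in controls. Slc16a10 (TAT1), which carries aromatic amino acids, was at 10.7, 2.99 and 2.56 FPKM in Ezh2 KO and at 10.8, 7.31 and 1.07 in controls. Of 26 amino acid response and tRNA synthetase genes, 3 were higher and 1 lower at p13 against virgin in Ezh2 KO, and 5 higher and none lower in controls, with list medians of 0.39 and 0.57. At p18 against p13 none passed in Ezh2 KO, and 1 was higher and 4 lower in controls. After prolactin 3 of the 26 were higher in Ezh2 KO and 4 in controls, with none lower. Chac1, a glutathione-degrading enzyme induced through ATF4, was at 13.5 FPKM after prolactin against 1.90 untreated in Ezh2 KO and at 8.48 against 2.11 in controls. Mthfd2, of mitochondrial folate metabolism, was at 14.1 FPKM in p13 control against 2.86 in untreated virgin control. Of 23 enzymes of amino acid metabolism, 5 were higher and 8 lower at p13 against virgin in each of the 2 genotypes, with list medians of -0.70 in Ezh2 KO and -0.40 in controls. Lao1, an L-amino acid oxidase of mouse milk, stood at 0.196, 52.0 and 343 FPKM in virgin, p13 and p18 Ezh2 KO and at 0.0666, 1.68 and 1511 in controls. Aldh18a1, which starts proline synthesis, stood at 6.79, 28.7 and 20.6 FPKM in Ezh2 KO and at 4.83, 16.8 and 48.4 in controls. Arg1 stood at 9.75, 1.48 and 1.73 FPKM in Ezh2 KO and at 16.1, 0.712 and 1.71 in controls. Il4i1 stood at 11.3, 0.0331 and 0.0806 FPKM in Ezh2 KO and at 0.0393, 0.0116 and 0.0661 in controls. After prolactin Il4i1 was at 0.0242 FPKM in Ezh2 KO and 3.90 in controls. Its signs were those of the lymphocyte sums, whose part was not tested.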

How the data were processed

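Poly(A) RNA-seq covered 31 libraries of whole mammary tissue in 12 groups, and 9 ChIP samples were not analysed here. The authors deposited 1 FPKM value per gene and group, with libraries of a group pooled. The submitters' processing notes name FastQC, Trim Galore, CASAVA, BWA, Bowtie, TopHat, HOMER, Cufflinks and Cuffdiff and the build mm9, with no versions or roles. The summed FPKM of a column ran from 581531 to 1151971, so the columns did not share a common sum. Where values are scaled to a library total, a few very abundant genes can lower all others. Whether that holds for these columns was not tested. Milk protein genes took 0.0711% to 46.9% of the summed FPKM. Below 0.05 FPKM the values of 1282 genes shared no common step (the most common ratio held 1.79%), so reads could not be recovered and depth is unknown. A single column per group gives no spread, and the planned limma test could not be fitted. Instead, differences of log2(FPKM + 1) were taken over 14273 genes with at least 1 FPKM in a group, with 1 as the threshold. Python 3.11.15, pandas 2.3.3, NumPy 2.4.6 and matplotlib 3.10.9 were used. The threshold was not tested against the spread between mice. The other settings were pseudocount, filter and 3 rescalings. Members reaching 5 FPKM are described with values, those between 1 and 5 by their highest value, the rest by name, and other lists by up to 4 genes with the largest differences. Members and gene lists were chosen with earlier results of these data known. The promoter coordinates are those of GRCm38.p6, a different build from mm9.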

Additional observations from a re-analysis of the deposited data

Results flagged for a closer look

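The sign of the Ezh2 KO minus control difference was opposite at p13 and p18 for 6 members, with at least 0.5 on the log2(FPKM + 1) scale at both stages. It was -1.30 at p13 and 1.07 at p18 for Slc1a5, -1.47 and 1.77 for Slc7a10, and -0.80 and 1.07 for Slc36a2. It was 0.89 and -0.85 for Slc7a5, 0.74 and -1.05 for Slc7a4, and 0.51 and -0.73 for Slc38a2. The adipocyte marker sum was 12127 FPKM in Ezh2 KO against 30765 in control at p13, and 13179 against 5781 at p18. The erythroid marker sum was 346 FPKM in Ezh2 KO against 2066 in control at p13 (5 of 5 markers lower by 1 or more), and 1450 against 54.4 at p18 (5 of 5 higher). The share of summed FPKM from milk protein genes was 14.7% in Ezh2 KO against 1.66% in control at p13, and 29.9% against 46.9% at p18. The part of fat, blood or milk transcripts in the 6 differences was not tested. The share of all genes with such opposite signs was not counted, so the count of 6 is not read as a trait of these members.

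Slc7a10 also changed sign between p13 and p18 in the other genotypes, at -0.57 and 1.08 for Ezh1 KO minus control and at -0.63 and 0.65 for Ezh1 het Ezh2 KO minus control. All 3 genotypes share the control columns.

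Slc38a1 differed in virgin glands by -0.76 after prolactin in Ezh2 KO and by 0.61 in control. The same 4 values give 0.52 for Ezh2 KO minus control without prolactin and -0.85 with it. Lymphocyte marker sums ran in the same direction, and their part was not tested. With 1 value per group, none of these 10 differences between effects was tested.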

How the results depend on the processing

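Over the 16 comparisons 61 member differences were past the threshold. Changing the filter cannot alter a member's difference and a smaller pseudocount can only enlarge it, so only rescaling bears on them: of 183 rescaled values 149 stayed past the threshold with the same sign, 31 fell below it and 3 changed sign. The 3 were p13 minus virgin in Ezh2 KO at a common luminal marker level, with -0.16 for Slc1a4, -0.50 for Slc7a1 and -0.082 for Slc43a2. Dropping the filter moved no count by over 1.5 times. Rescaling moved the median of all genes by -1.58 to 0.78 at a common luminal level, by -0.60 to 0.21 with a common sum and by -0.28 to 0.27 with a common sum without milk protein genes.

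At a common luminal level, the p13 against virgin Ezh2 KO counts were 1 higher and 20 lower in place of 4 and 5, where 2.23% and 74.5% of all genes passed against 3.70% and 74.1% of members. There was 1 higher in p18 against p13 Ezh1 het Ezh2 KO (3.70%, all genes 1.32%). Against control there were 8 lower in p13 Ezh2 KO (29.6%, all genes 17.0%), 2 lower in p18 Ezh2 KO (7.41%, all genes 2.30%) and 0 higher in p18 Ezh1 KO (all genes 0.855%). After prolactin there were 1 higher (3.70%, all genes 1.86%) and 2 lower (7.41%, all genes 9.16%) in Ezh2 KO and 2 higher in control (7.41%, all genes 4.04%). Virgin Ezh2 KO against control gave 10 higher (37.0%, all genes 20.6%) and 0 lower (all genes 0.392%) untreated, and 4 higher (14.8%, all genes 7.10%) after prolactin. With a common sum, p18 against p13 gave 0 higher (all genes 0.694%) and 17 lower (63.0%, all genes 56.3%) in Ezh1 het Ezh2 KO. In Ezh1 KO 0 were higher (all genes 0.715%) and 14 lower (51.9%, all genes 50.2%), and in control 14 were lower (51.9%, all genes 41.3%). The common sum also gave 0 lower in p18 Ezh2 KO (all genes 1.14%) and 0 higher in p18 Ezh1 KO (all genes 0.925%) against control. After prolactin it gave 1 higher in Ezh2 KO (3.70%, all genes 2.05%) and 2 in control (7.41%, all genes 3.85%). In untreated virgin Ezh2 KO against control it gave 0 lower (all genes 0.799%). Without milk protein genes in the sum, p18 against p13 gave 1 higher in Ezh1 het Ezh2 KO (3.70%, all genes 1.30%) and 5 in control (18.5%, all genes 5.12%). The same sum gave 1 higher in p13 Ezh2 KO against control (3.70%, all genes 3.04%), near the share of all genes. It gave 2 lower in p18 Ezh2 KO (7.41%, all genes 2.62%) and 0 higher in p18 Ezh1 KO (all genes 0.890%) against control. With prolactin 1 was higher in Ezh2 KO (3.70%, all genes 2%) and 2 in control (7.41%, all genes 3.73%). In untreated virgin Ezh2 KO against control 0 were lower (all genes 0.771%). A pseudocount of 0.1 gave 3, 11 and 7 lower at p18 against p13 in Ezh2 KO, Ezh1 het Ezh2 KO and Ezh1 KO, where 11.2%, 28.0% and 22.6% of all genes were lower. Against control it gave 2 higher in p13 Ezh2 KO (7.41%, all genes 4.20%), 3 lower in p18 Ezh2 KO (11.1%, all genes 3.26%) and 1 lower in p18 Ezh1 KO (3.70%, all genes 2.52%). For virgin Ezh2 KO against control it gave 1 higher untreated (3.70%, all genes 5.85%). After prolactin it gave 1 higher and 1 lower (3.70% each, all genes 1.43% and 4.29%). A filter of 5 FPKM left 1 lower in p13 Ezh1 het Ezh2 KO against control (4.35%, all genes 3.16%). A rescaling multiplies every gene of a group by the same factor, and the cause of a moved count was not tested further.

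Chosen after seeing the data, p13 Ezh1 KO in place of p13 control gave 1 higher and 1 lower for Ezh2 KO (3.70% each, all genes 1.11% and 3.81%). For Ezh1 het Ezh2 KO it gave 0 and 0 (all genes 1.28% and 2.04%). No paired analysis was possible because each group has 1 column, so the replicate block and leaving out replicates were not run. Depth is unknown, and differences of members under 5 FPKM rest on low values.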
